A study of Schizophyllum commune with 6 samples.

Results

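RNA sequencing of Schizophyllum commune, the split-gill mushroom, gave values for 14652 gene models. Of these, 41 had no read in the mycelium of strain E6 although they were read in another wild-type strain, 12-43. They were chosen from RPKM (reads scaled to the length of the model in kilobases and to the library total) by 3 conditions: 0 in both E6 libraries, above 0 in at least 1 library of 12-43, and at least 2 RPKM in both libraries of 12-43, in both libraries of a dhc2 knockout, or in each. The conditions gave 44 models, of which 3 lipopeptide pheromone genes were left out by identifier. The study had 3 groups of 2 libraries. Strain 12-43 is a wild type of mating type A3,5 and B2,2, and strain E6 is a wild type of mating type A4,6 and B2,1. The third strain lacks dhc2, named in the labels as a dynein heavy chain gene, on mating type A3,5 and B2,2, and its parent strain is not given there. No identifier could be tied to dhc2 by name, so its own reads do not check the knockout label. All 6 mycelia were grown on solid CYM medium at 28 °C and then for 3 days on cellophane. The strains are labelled as monokaryons, mycelia whose nuclei are all of 1 kind, yet the growth protocol speaks of mycelium from a mating interaction. No label says that replicates were separate cultures, so the tests below measure the spread between these libraries.

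Wild strains of S. commune are known for a very high level of sequence variation between individuals. Mating in this fungus is controlled by the A and B loci. The A locus encodes homeodomain transcription factors, and the B locus encodes lipopeptide pheromones and the receptors that detect them. Strains of different B specificity carry different pheromone and receptor genes at that locus. Dynein is a motor that carries cargo, including nuclei, along microtubules.

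The reads behind each value could be recovered, because low RPKM values were whole multiples of a step. The total that the authors divided by was between 8769918 and 14372979 reads per library. In E6 it was 9210239 reads for replicate 1 and 13012283 reads for replicate 2. A count of 0 reads allows up to 3 reads, which is 0.326 RPKM and 0.231 RPKM in these libraries for a model of 1 kb, and this limit covers counting error only. A value of 0 says that no read was assigned to the model; the genome sequence of E6 was not analysed here. The read quality reports split the libraries: GAAGA appeared among the overrepresented 5-mers of 12-43 replicate 1 and both knockout libraries, and was not listed for 12-43 replicate 2 or for E6. All 41 models had reads in 12-43 replicate 2, from 4 to 527 with a median of 34; the rule itself asked for 2 RPKM in this library in most of them.

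The values of 12-43 and E6 chose the models, so they are given as a description. The mean in 12-43 ranged from 0.949 to 50.9 RPKM with a median of 6.13 RPKM. For comparison, the median was 26.4 RPKM over the 10804 models at 2 RPKM or more in both 12-43 libraries. There were 14 models with a mean of 10 RPKM or more in 12-43 and 17 with a mean under 5 RPKM. At the rate seen in 12-43, the E6 libraries together would have held from 10.7 to 1859 reads of each model, with a median of 102. For 29 models it was 50 reads or more. Against a floor of 3 reads in each E6 library, 27 models were at least 10-fold lower in E6 than in 12-43. The bound was weakest for model 11173, at 1.72-fold. Such bounds take the 12-43 mean as exact, so they are not strict where 12-43 had few reads, as in model 11173. Of the 11441 models at 2 RPKM in both libraries of 12-43 or of the knockout, 0.385% met the conditions on E6 and 12-43.

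**Figure D1:**
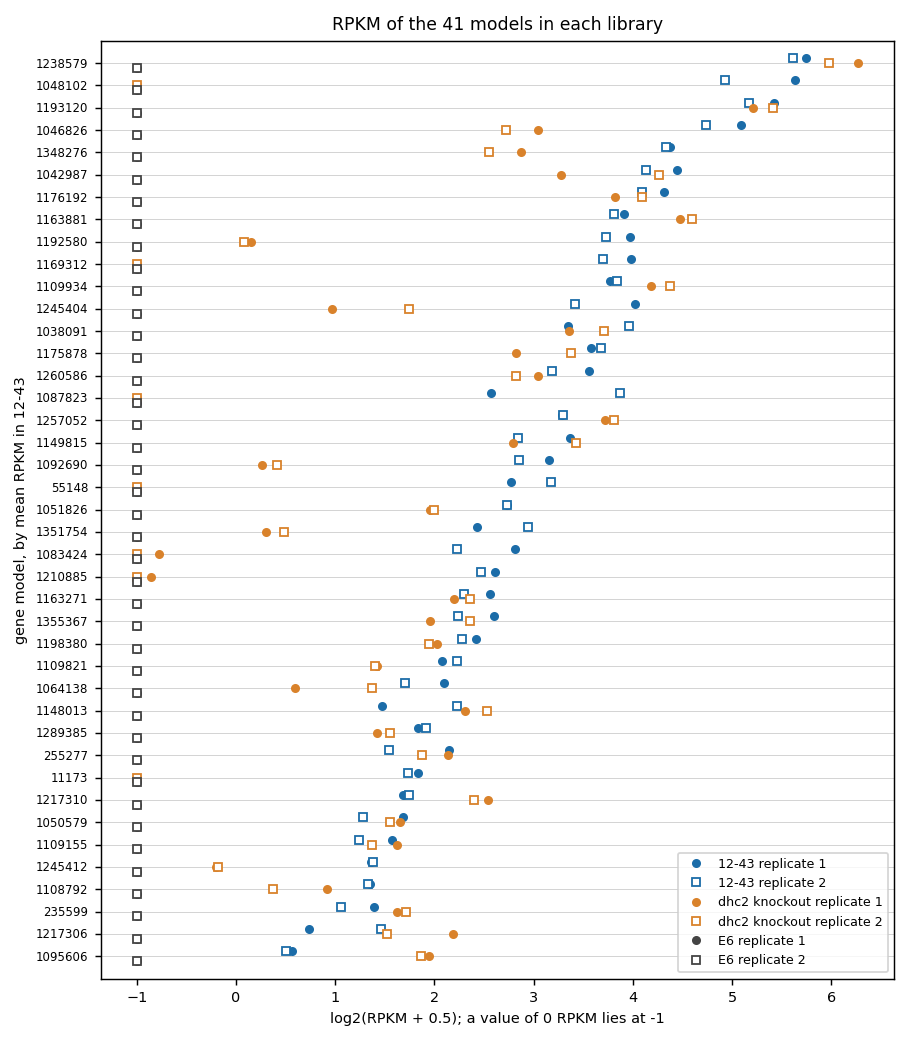
RPKM of each of the 41 models in the 6 libraries, on the scale log2(RPKM + 0.5), with models ordered by their mean in 12-43. Both E6 libraries lie at -1, the position of 0 RPKM, for all 41 models, and the markers of E6 replicate 1 are hidden under those of replicate 2. The same holds for the knockout in 5 models.

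Model 1238579, a coding length of 357 nt, had the highest mean in 12-43. It was at 53.2 and 48.5 RPKM in 12-43 (267 and 152 reads), at 76.8 and 62.7 RPKM in the knockout and at 0 in E6, at least 65.3-fold lower in E6 than in 12-43. Model 1193120, of 435 nt, was at 42.4 and 35.4 RPKM in 12-43 and at 36.6 and 42.1 RPKM in the knockout. The 12-43 and knockout values of this model overlapped. Model 1048102, of 2004 nt, had the most reads, with 1382 and 527 in 12-43 (49.1 and 30.0 RPKM) and 0 in each of the other 4 libraries. It was at least 285-fold lower in E6 than in 12-43.

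The next models by mean over the 12-43 and knockout libraries were between 9 and 34 RPKM in 12-43. Model 1046826 was at 33.5 and 26.2 RPKM in 12-43 and at 7.73 and 6.08 RPKM in the knockout, and model 1348276 was at 20.2 and 19.6 RPKM against 6.82 and 5.36 RPKM. In both, the 12-43 libraries lay above the knockout libraries. Model 1163881 was at 14.6 and 13.5 RPKM in 12-43 and at 21.7 and 23.7 RPKM in the knockout, and model 1109934 was at 13.1 and 13.9 RPKM against 17.6 and 20.3 RPKM. In these the knockout libraries were the higher ones. Model 1042987 was at 21.3 and 17.0 RPKM in 12-43 and at 9.20 and 18.7 RPKM in the knockout, and model 1038091 at 9.65 and 15.03 RPKM against 9.71 and 12.6 RPKM. The strains overlapped in both. Model 1176192 was at 19.4 and 16.5 RPKM in 12-43 and at 13.65 and 16.5 RPKM in the knockout, with both 12-43 libraries above the knockout by a narrow margin.

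Some models rested on few reads. Model 11173 had 7 and 4 reads in 12-43 and model 1050579 had 9 and 4. Model 1087823, the shortest at 105 nt, had 8 and 13 reads, which is 5.42 and 14.1 RPKM, the largest ratio between the 12-43 replicates among the 41.

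The threshold of 2 RPKM was closest to models 1108792, 1245412 and 1109155 on the inside, whose lower deciding values were 2.01, 2.07 and 2.08 RPKM. Just outside, models 1105560, 1107785 and 1078552 were also at 0 in E6, with lower values of 1.99, 1.93 and 1.87 RPKM. On the other condition, 26 models had a single read in the 2 E6 libraries together and otherwise met the rule, and 69 had 1 to 3 reads. Among the models with a single read, the highest by mean over the 12-43 and knockout libraries were 1206596 (108 and 112 RPKM in the knockout), 251504 (82.6 and 75.4 RPKM in the knockout) and 1193121 (20.3 and 26.3 RPKM in 12-43). The same conditions with 12-43 and E6 exchanged gave 88 models, and with 0 in both knockout libraries they gave 22.

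The 41 models were short by the lengths solved from their values. Their coding lengths ran from 105 to 3165 nt with a median of 525 nt, and 33 were below 1122 nt, the median of the 11441 models at 2 RPKM in both libraries of 12-43 or of the knockout. There were 11 models (26.8%) under 300 nt, against 5.08% of those 11441. The smallest solution was taken for each length, so an error makes a model too short. The 41 had no E6 values to solve from, which makes such errors more likely in them. On data simulated from the solved reads and lengths, the reads were exact in 39 of the 41. A short model collects few reads at a given RPKM and so reaches 0 reads more easily. What part either point has in the lengths was not tested.

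**Figure D2:**
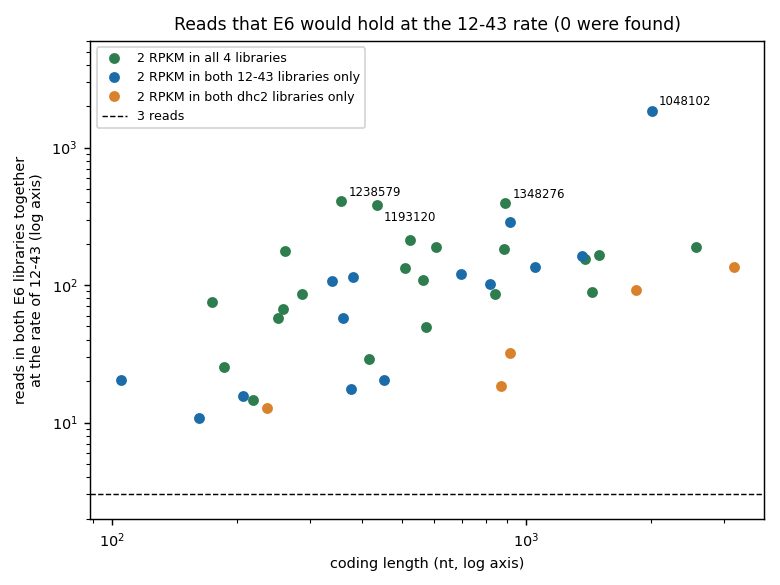
Reads that the 2 E6 libraries together would have held at the rate of 12-43, against the coding length of each of the 41 models, on log axes. All 41 points lie above the dashed line at 3 reads, from 10.7 reads to 1859 reads for model 1048102.

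The knockout was compared with 12-43 to see how the 41 models stood in a strain with the same labelled mating type as 12-43. There were 22 models at 2 RPKM or more in all 4 libraries of these strains, 14 that reached 2 RPKM in both 12-43 libraries but not in both knockout libraries, and 5 for which the reverse held. The last 2 sets were made unequal by the rule itself, so only the 22 are read as a comparison. Differences were tested with limma on log2(RPKM + 0.5) over 12220 models, 37 of the 41 among them. E6 was left out of the fit, because the rule fixed its spread at 0 for these models. Over all tested models 55.5% were called at an adjusted p under 0.05, 28.3% higher and 27.3% lower in the knockout.

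Among the 22 models, 5 were higher in the knockout, 4 were lower and 13 were not called, so that 40.9% were called. In 20 of the 22 the fitted difference was within 1 of 0 on the log2 scale, which is 90.9% against 80.6% of the 10358 tested models at the same threshold. A model near 2 RPKM in 12-43 cannot fall far and stay in this set. All 41 together, those outside the 22 included, had a median of 6.13 RPKM in 12-43. It was 26.4 RPKM for models at 2 RPKM in both 12-43 libraries. The level of the 22 alone was not compared, and its part in these shares was not tested. The shares are not read as a trait of the 22. The median log2 difference of the 22 was -0.20, beside -0.01 for all tested models. The RPKM values of the groups did not overlap in 15 of the 22, 6 higher and 9 lower in the knockout, where 78.8% of all tested models did not overlap. Fewer calls were made with 1 knockout library, in fits that take the spread from the 12-43 libraries alone and assume that the lone knockout library varies like them. Without knockout replicate 1, 1 model was called higher and 2 lower, and without knockout replicate 2, 1 was called higher and 3 lower. The calls over all models went from 6784 to 3944 and 3938 in these fits.

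The largest fall among the 22 was that of model 1046826, with a 12-43 mean of 29.9 ± 5.17 RPKM and a knockout mean of 6.91 ± 1.17 RPKM (SD over 2 libraries). Its log2 difference was -2.04, with an SE of 0.17 and a limma adjusted p of 0.000304. For model 1348276 the means were 19.9 ± 0.386 and 6.09 ± 1.03 RPKM (SD over 2 libraries), and the log2 difference was -1.65, with an SE of 0.15 and a limma adjusted p of 0.000465. The calls on these models held under the 12 alternative fits that were run. Model 1051826, of 186 nt, was at 6.12 and 6.13 RPKM in 12-43 and at 3.37 and 3.49 RPKM in the knockout, on 16, 10, 9 and 9 reads. Its log2 difference was -0.76 (SE 0.14, limma adjusted p = 0.00634). Model 1109821 was at 3.73 and 4.18 RPKM against 2.19 and 2.14 RPKM, a log2 difference of -0.74 (SE 0.17, limma adjusted p = 0.0125). On leaving out either knockout library neither of these last 2 models was called (limma adjusted p from 0.0598 to 0.0860), while the log2 differences stayed between -0.78 and -0.73. Model 1051826 was also not called with voom on recovered reads (0.0898), at a log2 difference of -0.81.

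The largest rise was smaller than the falls of 1046826 and 1348276 and close in size to the other falls. Model 1217310 was at 2.72 and 2.85 RPKM in 12-43 and at 5.31 and 4.76 RPKM in the knockout, a log2 difference of 0.75 (SE 0.16, limma adjusted p = 0.00999). Model 1163881 rose by 0.67 (SE 0.11, limma adjusted p = 0.00354), model 1109934 by 0.47 (SE 0.13, limma adjusted p = 0.0243) and model 1257052 by 0.47 (SE 0.12, limma adjusted p = 0.0193). The last was at 9.28 and 9.31 RPKM in 12-43 and at 12.7 and 13.5 RPKM in the knockout. Model 1238579, the highest of the 41 in 12-43, had means of 50.9 ± 3.30 RPKM there and 69.7 ± 9.99 RPKM in the knockout (SD over 2 libraries) and rose by 0.44 (SE 0.12, limma adjusted p = 0.0263). None of these 5 was called in every fit with 1 knockout library. Model 1238579 lost its call without replicate 1, where its log2 difference was 0.29 (limma adjusted p = 0.183), and 1163881 without replicate 2, at 0.61 (0.0652). The other 3 were called with neither library alone (0.0570 to 0.206), at log2 differences of 0.67 and 0.83 for 1217310, 0.51 and 0.43 for 1257052 and 0.56 and 0.38 for 1109934. The last was also not called with voom (0.0736), at 0.49.

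**Figure D3:**
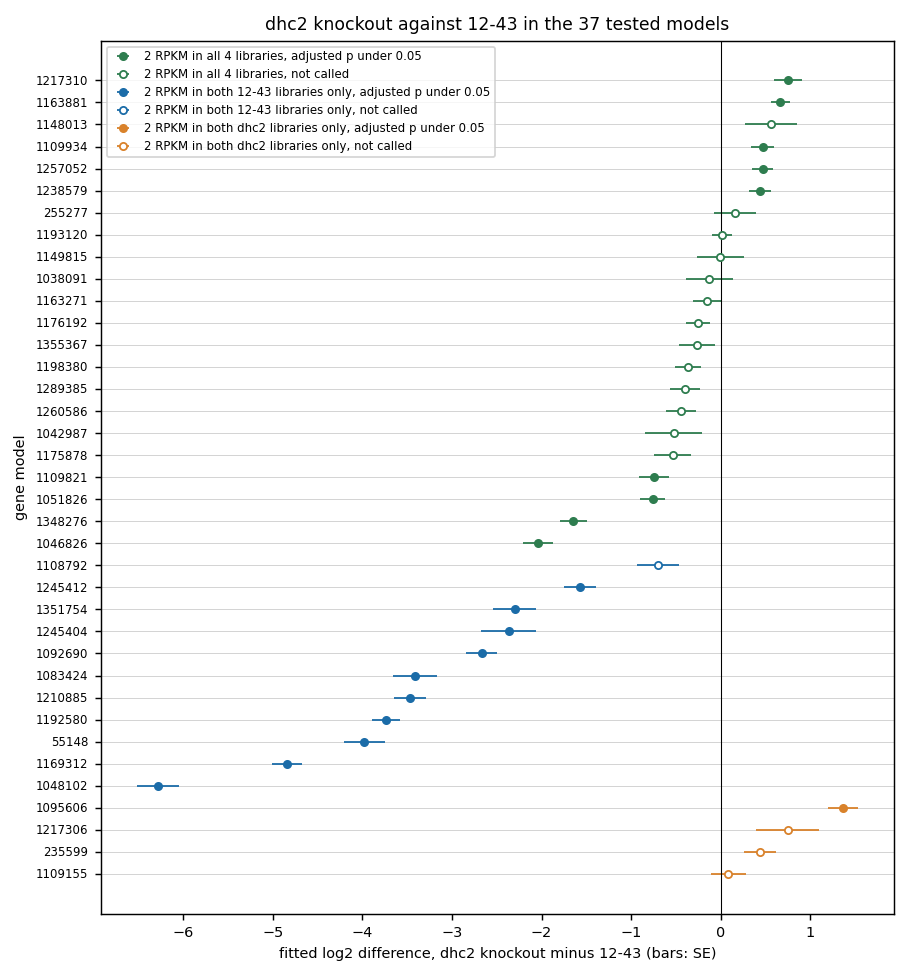
Fitted log2 difference of the knockout minus 12-43, with its SE, for the 37 tested models, grouped by the libraries in which they reached 2 RPKM. The 22 models at 2 RPKM in all 4 libraries (green) lie between -2.04 and 0.75, whereas the models of the other colours were set apart by the rule.

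The 13 models of the 22 that were not called included 1193120, with a log2 difference of 0.01 (SE 0.11), and 1149815, at 9.84 and 6.67 RPKM in 12-43 and 6.41 and 10.2 RPKM in the knockout. The sign of these small differences changed between fits. The other uncalled models included 1163271 (5.38 and 4.43 RPKM in 12-43, 4.10 and 4.64 RPKM in the knockout), 1355367 (5.56 and 4.20, 3.37 and 4.64 RPKM) and 255277 (3.92 and 2.41, 3.89 and 3.16 RPKM), whose values overlapped. In 1148013 the knockout libraries, at 4.45 and 5.27 RPKM, lay above those of 12-43, at 2.27 and 4.17 RPKM, and in 1198380 and 1289385 they lay below, at 3.56 and 3.35 RPKM against 4.83 and 4.34, and at 2.17 and 2.42 RPKM against 3.07 and 3.28. None of these 3 differences was called (limma adjusted p = 0.154, 0.0809 and 0.0876). Models 1175878 (log2 difference -0.54, SE 0.21, limma adjusted p = 0.0758) and 1260586 (-0.44, SE 0.16, limma adjusted p = 0.0651) were nearest to the threshold and passed it in some fits, as with the replicate number as a block. In the fit without 12-43 replicate 2, whose 3 libraries lie on 1 side of the split in the quality reports, 6 of the 22 were called higher and 5 lower.

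The 14 models at 2 RPKM in 12-43 alone included 5 with no read in either knockout library, so that these were read in 12-43 and in neither of the other strains. Against a floor of 3 reads in each knockout library, model 1048102 was at least 373-fold lower in the knockout than in 12-43. Model 1169312 was at 15.3 and 12.4 RPKM in 12-43 (73 and 37 reads), at least 22.1-fold above the knockout, and model 55148 at 6.32 and 8.55 RPKM (32 and 27 reads), at least 12.6-fold. For models 1087823 and 11173, with 21 and 11 reads in 12-43, the bounds were 4.82-fold and 2.24-fold. With so few reads in 12-43 these are not strict bounds.

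Models 1210885 and 1083424 had a single read in the knockout. The former had 107 and 60 reads in 12-43, and the latter 75 and 30. Model 1192580 was at 15.1 and 12.8 RPKM in 12-43 and at 0.610 and 0.554 RPKM in the knockout. Model 1245404 was at 15.7 and 10.2 RPKM against 1.46 and 2.84 RPKM. The others of this set, 1092690, 1351754, 1245412, 1064138 and 1108792, were between 2.01 and 8.38 RPKM in 12-43 and between 0.368 and 2.09 RPKM in the knockout.

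Of the 5 models at 2 RPKM in both knockout libraries alone, 1095606 stood furthest from 12-43, at 3.36 and 3.15 RPKM against 0.981 and 0.917 RPKM. Model 1217306 was at 4.04 and 2.37 RPKM against 1.17 and 2.25 RPKM, and model 235599, the longest of the 41 at 3165 nt, at 2.57 and 2.78 RPKM against 2.11 and 1.59 RPKM. Models 1109155 and 1050579 overlapped between the strains and lay on this side of the rule because their second 12-43 library was at 1.86 and 1.92 RPKM. No model with 0 reads in both E6 and both 12-43 libraries reached 2 RPKM in both knockout libraries.

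The place of the models in the genome was not used to choose them. Of the 41 identifiers, 15 matched a locus tag of the RefSeq gene table of assembly Schco3, made from strain H4-8, and no match carried a gene symbol. The table gives the order of genes on 25 sequences, and the 15 models lay on 12 of these. No pair of them had 5 or fewer genes in between, and the nearest pair, 1217310 and 255277, had 23 genes in between. The other 26 models could not be placed. For 14 of the 15 the coding length was no longer than the RefSeq gene, as for 99.1% of all matched models. The smallest solution was taken for each length, so this is a weak check of the match. The exception was 235599, 1 of the 2 models matched by an older locus tag, and its place is less certain.

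Model 1238579 lay inside the B mating-type locus of that assembly. Its neighbour on 1 side was the pheromone gene bbp2-2 and on the other the pheromone receptor gene bbr2, followed by bbp2-1 and a further bbp2 pheromone gene. These names stand for the beta part of the locus and its specificity 2. The labels give E6 the B type 2,1 and 12-43 the type 2,2. The receptor bbr2 had 503 and 207 reads in 12-43, 719 and 729 in the knockout and 1 and 3 in E6. For bbp2-2 there were 38 and 19 reads in 12-43, 235 and 207 in the knockout and 0 and 1 in E6. Neither had more than 3 reads in an E6 library, where 1238579 had none beside 267 and 152 reads in 12-43. At 4 places from 1238579, model 60526, which has no symbol, had 36 and 19 reads in 12-43, 260 and 245 in the knockout and 0 and 2 in E6.

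Further along the locus the models differed. The pheromone gene bbp2-8, at 9 places, had 18 and 5 reads in 12-43, 107 and 93 in the knockout and 0 and 3 in E6. For bbp2-5 there were 0 and 1 reads in 12-43, 38 and 44 in the knockout and 0 and 1 in E6. The bbp2 gene at 6 places had 2 and 2 reads in 12-43, 14 and 16 in the knockout and none in E6. At 10 places, the pheromone gene bbp2-6 had more reads in E6 (10 and 28) than in 12-43 (3 and 3). At 11 places, model 1160054 was at 29.4 and 42.1 RPKM in E6 and at a mean of 1.16 RPKM in 12-43. The receptor gene bar3, at 18 places, was at 10.9 RPKM in 12-43 and 19.2 RPKM in E6 (means). By its name bar3 is of specificity 3, which the labelled B types of 12-43 and E6 do not hold. Which allele its reads came from was not tested. Means were lower in E6 in models 17256 (33.2 against 10.01 RPKM), 1192535 (7.74 against 1.52 RPKM) and 112482 (18.4 against 4.60 RPKM), and in brl3 (139 against 75.0 RPKM). On the other side brl1, named as a receptor-like gene and 6 places away, had 214 and 98 reads in 12-43 and 42 and 72 in E6. The pheromone genes form a family of short genes, and reads shared between copies would make the value of any 1 copy uncertain. E6 and 12-43 differ both in B type and in the rest of their background, and these cannot be told apart here.

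**Figure D4:**
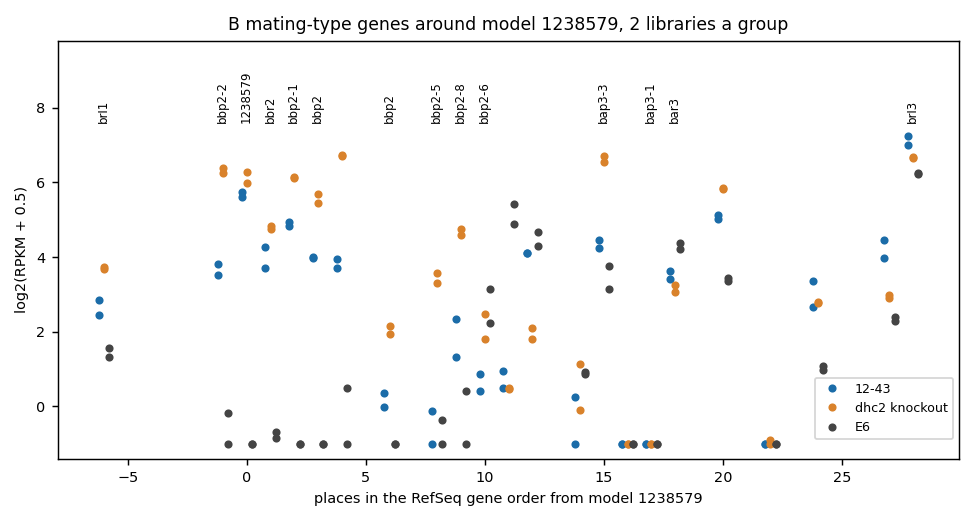
log2(RPKM + 0.5) in the 2 libraries of each group for the matched models from brl1 to brl3, by their places in the RefSeq gene order from model 1238579. From 1 place before to 4 places after 1238579 the E6 libraries are between 0 and 0.899 RPKM and those of 12-43 and the knockout between 10.9 and 106 RPKM, whereas further on E6 is above 12-43 in some models, such as bbp2-6, 1160054 and bar3, and below it in others, such as bbp2-8 and brl3.

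The genes around the other placed models were read the same way. Within 10 places of the 15 models, 33 further matched models were at 2 RPKM or more in both 12-43 libraries, around 11 of the 15. In 10 of these 33 (30.3%) the mean RPKM of E6 was under 0.25 times that of 12-43, against 5.62% of all 2615 matched models at this level. Both counts leave out the 44 models that met the conditions, bbp2-1 and the bbp2 gene beside it among them. The B locus supplied 4 of the 10. Outside it the count was 6 of 28 (21.4%), around 6 different models. These counts are small and describe the matched genes alone.

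The clearest case outside the B locus was model 1163888, with 1 gene between it and model 1257052. It was at 23.3 and 21.9 RPKM in 12-43 (832 and 488 reads), at 27.9 and 28.8 RPKM in the knockout and at 0.128 and 0.181 RPKM in E6 (3 and 6 reads). The model next to 1217310, 1193686, was at 4.12 and 4.09 RPKM in 12-43 and at 0.670 and 0.429 RPKM in E6. Model 1106344, with 6 genes between it and 1042987, had 84 and 50 reads in 12-43 and 1 and 0 in E6. Model 1176824, with 8 genes between it and 1260586, had 124 and 65 reads in 12-43 and 3 and 5 in E6. Model 1136376, with 6 genes between it and 255277, had 120 and 69 reads in 12-43 and 7 and 8 in E6.

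Around 1048102 the nearest matched models on each side were read in E6. Model 66326, with 2 genes in between, was at a mean of 160.1 RPKM in 12-43 and 100.3 RPKM in E6, and model 81546, with 4 genes in between, at 158.3 and 118.7 RPKM. The low one of its neighbours was 1187679, with 8 genes in between, at 482 and 330 reads in 12-43, 110 and 121 in the knockout and 65 and 91 in E6. Neighbours were also higher in E6 in places: model 1039931, with 6 genes between it and 1064138, was at a mean of 8.75 RPKM in 12-43 and 142 RPKM in E6.

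**Figure D5:**
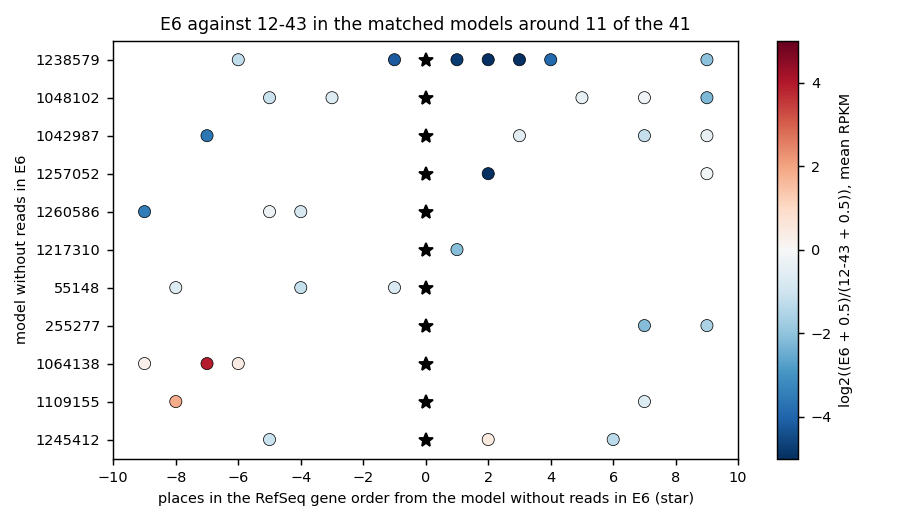
E6 against 12-43 in the matched models within 10 places of 11 of the 41 models, for models at 2 RPKM or more in both 12-43 libraries, bbp2-1 and its bbp2 neighbour included. Each point is a neighbouring model and its colour the log2 ratio of mean RPKM + 0.5 in E6 over 12-43. Dark blue points, with E6 far below 12-43, lie around 1238579 and beside 1257052, while the points nearest to 1048102 are pale.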

How the data were processed

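The authors deposited RPKM per gene model for each library, per the file headers, with the FastQC 0.9.2 output for the raw reads below the table in the same deposit. Per the labels, reads were single and of 50 bases; the FastQC output gives a length of 51. TopHat, edgeR and DESeq are listed, per the submitters' processing notes, without versions or roles. Alignment settings, genome build, annotation and use of strand were not given in these sources, so reads of near-identical, overlapping or antisense models may be split in unknown ways. RPKM equals reads divided by model length and by a library total. These were solved for, with lengths as multiples of 3. All 13715 models above 0 in any library gave whole reads within 0.005 reads plus rounding. Where several solutions existed the smallest was taken. The totals were 46.0% to 58.7% of the raw reads. On simulated data the totals were exact in 6 of 6 libraries. With E6 hidden, the reads were exact in 96.5% of 12496 models with reads in all 4 libraries of 12-43 and the knockout. None of the inexact ones was above the truth. Some of the 41 lack reads in a knockout library, and the reads were exact in 39 of the 41 as simulated.

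The knockout was compared with 12-43 by limma 3.58.1 (R 4.3.3) on log2(RPKM + 0.5), trended variance, 2 residual degrees of freedom, 2-sided, with Benjamini-Hochberg adjustment over 12220 models. These had 0.717 CPM (10 reads at the median depth) in at least 2 of the 4 libraries and 15 reads in all. Of the 41 models, 4 had fewer and were not tested. RPKM were scaled by trimmed means of M values (factors 0.968 to 1.03). Fold changes on this scale understate those of low models. On simulated data of these 12220 models the test recovered 71% of changes of 2-fold and 97% of those of 4-fold, with 0.592% of its calls false. The simulation changed only a small part of the models and gave all models of a group the same spread beyond counting error. In the data 55.5% of the models were called, so these rates may not hold there. Floors cover counting error only, and only on the side without reads, since the 12-43 mean was taken as exact. Named models were those of the highest mean RPKM, the largest called rises and falls, those next to a threshold and those placed beside others; further models and the flanking genes were named after their values were seen. Groups of members by product, protein features and copies were planned but not made, since the gene table used here gives neither products nor sequences. The models, lists and tests were chosen with earlier results of these data known.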

Additional observations from a re-analysis of the deposited data

How the results depend on the processing

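The comparison of the knockout with 12-43 was refitted under 12 alternatives (2 pseudocounts, no read filter, 2 other scalings, all 6 libraries, voom on recovered reads, a replicate block and 4 fits without 1 library). The tested models include those that the rule made unequal. Some of these, such as 1048102 at a log2 difference of -6.28, can hardly change their call. The next counts are therefore not read as the stability of the 22 models. Among the 22, only the calls on the largest falls held under every alternative. Of 444 values of the tested models, 402 kept their direction and their side of the threshold, 16 passed it newly, 14 no longer passed it and 12 changed sign, none of these called. Model 1149815 was at 0.00079 without scaling and model 1193120 at -0.0028 with upper-quartile scaling and -0.0012 with voom. Without 1 library the log2 difference ranged from -0.31 to 0.31 in 1149815, from -0.47 to 0.22 in 1038091, from -0.048 to 0.22 in 1109155, from -0.078 to 0.11 in 1193120 and from -0.11 to 0.42 in 255277. Without 1 library, the calls over all models ranged from 3938 to 7687 (2123 to 3906 higher, 1806 to 3781 lower), those among the 22 models from 1 to 6 higher and from 2 to 6 lower, and their median from -0.32 to -0.049. The cause was not tested.

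Same-numbered 12-43 and knockout libraries did not deviate together (correlation across models 0.0034), so the numbers were not read as pairs. With the replicate block 6779 models were called, and 5 of the 22 were higher and 6 lower.

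The number of models without reads in E6 was 60 at 1 RPKM and 22 at 5 RPKM, and 80 with up to 1 read allowed in each E6 library. It ranged from 43 to 66 without 1 library, being 62 and 66 without E6 replicate 1 and 2. Each of these sets held all 41, which was fixed in advance, since leaving out a library only loosens the conditions for them. The larger numbers with 1 E6 library show that the depth of E6 bounds what 0 reads can mean.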
